A study of Homo sapiens with 6 samples.

Results

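Cyclic AMP-dependent protein kinase (PKA) was followed at the RNA level in HCT116 cells, a human colorectal carcinoma line, through 9 genes. They are the catalytic subunit genes PRKACA and PRKACB, the regulatory subunit genes PRKAR1A, PRKAR1B, PRKAR2A and PRKAR2B, the inhibitor genes PKIA and PKIG, and CREB1, a transcription factor that PKA phosphorylates. All 9 symbols were found among the 59251 rows of the count table, and all 9 passed the filter on low counts that left 14808 genes for testing. PRKACB gave the set its starting point because it was among the genes called lower in the mutant cells, so its difference is given as a description. The other 8 genes were chosen by family and function.

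The MUT group (3 libraries) came from HCT116 cells homozygous for the eIF6 substitution N106S, made by CRISPR/Cas9 editing and described in the labels as clones. The WT group (3 libraries) came from unedited HCT116 cells. Both groups were grown in the same medium with serum, with no agent that raises cyclic AMP named in the labels. The labels do not say how many clones were sampled or whether replicates were separate cultures, so p-values measure the spread between these samples only, and a difference of the clone and an effect of the substitution cannot be told apart.

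PKA at rest is a complex of regulatory and catalytic subunits. Cyclic AMP, made by adenylyl cyclases and broken down by phosphodiesterases, binds the regulatory subunits, and the catalytic subunits become active. Protein kinase inhibitors (PKI) block free catalytic subunits with a stretch that resembles a substrate, and anchoring proteins hold the complex at particular sites in the cell. PRKACA and PRKAR1A are broadly expressed, while PRKACB, PRKAR1B and PRKAR2B are known for high expression in brain.

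PRKACB has several known transcription starts, and its upstream DNA is shown here because it was the member with the largest difference between the groups. Windows from the RefSeq promoter table (GRCh38.p14) were read for 8 of the 9 members, and PKIA was not searched. The table held 23 start sites for these 8, 5 of them for PRKACB. Each sequence below is the 250 bases before a start site, 5′ to 3′ on the gene's strand. Capitals mark the cyclic AMP response element (CRE, TGACGTCA), the site to which CREB1 binds, or its core TGACG on either strand. A full CRE contains the core on both strands.
PRKACB, upstream start, chr1:84077829-84078078, plus strand: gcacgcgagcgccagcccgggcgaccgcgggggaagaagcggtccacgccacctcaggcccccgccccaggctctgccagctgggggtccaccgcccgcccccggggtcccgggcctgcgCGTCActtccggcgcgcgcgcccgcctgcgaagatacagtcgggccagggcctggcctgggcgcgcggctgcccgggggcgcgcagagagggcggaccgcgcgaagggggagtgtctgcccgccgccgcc
PRKACB, next start, chr1:84144021-84144270, plus strand: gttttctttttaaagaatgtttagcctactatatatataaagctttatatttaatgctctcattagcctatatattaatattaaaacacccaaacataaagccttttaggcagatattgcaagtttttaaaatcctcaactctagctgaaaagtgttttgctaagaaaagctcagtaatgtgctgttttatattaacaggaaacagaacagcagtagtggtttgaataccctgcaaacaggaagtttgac
PRKACA, chr19:14117763-14118012, minus strand: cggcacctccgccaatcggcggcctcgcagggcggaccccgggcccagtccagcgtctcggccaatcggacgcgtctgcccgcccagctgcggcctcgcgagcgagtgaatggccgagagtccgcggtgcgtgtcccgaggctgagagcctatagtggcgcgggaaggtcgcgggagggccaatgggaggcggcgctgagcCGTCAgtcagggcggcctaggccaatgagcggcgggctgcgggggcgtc
PRKAR1A, start at 68512430, chr17:68512180-68512429, plus strand: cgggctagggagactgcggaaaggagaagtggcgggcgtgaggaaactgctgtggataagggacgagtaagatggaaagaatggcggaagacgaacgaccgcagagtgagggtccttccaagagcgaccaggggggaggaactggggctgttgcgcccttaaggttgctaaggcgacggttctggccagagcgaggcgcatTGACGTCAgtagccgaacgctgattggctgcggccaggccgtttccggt

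The upstream PRKACB window was 80.8% G and C and held 1 CRE core, 130 bases before the start. The next PRKACB window, with 30.8% G and C, held no core, and neither did the windows of the other 3 PRKACB starts. The PRKACA window shown held 1 core, 49 bases before its start. A full CRE was found before 1 start of PRKAR1A and in no other window of the members searched. Among all 35116 windows of the same length in the table, 21.2% held a core and 1.65% a full CRE. These matches describe the letters in the windows, and binding was not measured.

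The libraries held 53986494 to 80146608 counts in MUT and 63951768 to 87656970 in WT. Most of these came from 7SL, 7SK and other abundant noncoding RNAs, and 11019248 to 19678584 counts in MUT and 10103124 to 17717171 in WT remained without them and ribosomal RNA. MUT replicate 2 stood apart, with 3.91% of its counts in ribosomal RNA rows, and WT replicate 1 had 1.16%, against 0.0891% to 0.234% in the other 4 libraries. In log2 CPM across genes, which are not independent replicates, MUT replicate 2 correlated best with WT replicate 1 (r = 0.9499), while MUT replicates 1 and 3 correlated best with each other (r = 0.976). Fold changes were scaled with TMM factors, which gave 146 genes called higher (0.986% of those tested) and 137 called lower (0.925%) in MUT. Scaling by library size alone shifted the median gene to 0.54 (log2) and gave 95 higher and 13 lower. EIF6 itself had 36.7, 30.7 and 35.7 CPM (counts scaled to the TMM-adjusted library size) in MUT, against 43.3, 47.9 and 47.4 CPM in WT (log2 fold change -0.43, SE 0.12, edgeR adjusted p = 0.110). DESeq2's Wald test called EIF6 lower (adjusted p = 0.0442). A substitution of 1 amino acid is not checked by the transcript level. Of 11 markers of colon epithelium, 5 (EPCAM, KRT8, KRT18, KRT19 and CDX2) exceeded 1 CPM in every library, while CDH1 averaged 0.295 CPM in MUT and 0.702 CPM in WT. Of 5 immune markers 2, PTPRC and CD3E, had no count in any library.

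PRKACB, which encodes the beta form of the catalytic subunit (chromosome 1, 84078079 to 84238498, GRCh38), had 316, 445 and 287 counts in MUT, against 725, 787 and 452 in WT. On the CPM scale this was 4.21, 4.57 and 4.81 in MUT and 10.50, 10.52 and 10.46 in WT. The groups did not overlap, and every MUT library was below 5 CPM. The mean was 4.53 ± 0.30 CPM in MUT and 10.49 ± 0.03 CPM in WT (SD, n = 3 each), a log2 fold change of -1.21 (SE 0.11), which corresponds to 0.432 times the WT level. The coefficient of variation (SD over mean) of the 3 WT values was 0.273%, below the 3.56% to 4.70% that counting error alone gives for 1 library at these counts. Of 14808 genes tested, 174 had a lower log2 fold change than PRKACB. The log2 fold change was -1.20 in the 4 libraries low in ribosomal RNA.

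In edgeR's quasi-likelihood test, at a threshold of 0.05 on the adjusted p, PRKACB was the 1 member of the 9 called (11.1%). Of all tested genes 1.91% were called in either direction, 0.986% higher and 0.925% lower in MUT. Nothing is read from the members' share, because this contrast led to the choice of PRKACB. Among genes with values below 0, ACSL5 (-1.04, edgeR adjusted p = 0.0499) lay just inside the threshold and MRPS6 (-0.59, edgeR adjusted p = 0.0501) just outside. With library size alone as the scale PRKACB stood at -0.66 (edgeR adjusted p = 0.2998), which is below the median of all genes there. In bulk RNA, a smaller number of cells with a transcript and less transcript per cell cannot be told apart. Markers of neurons, a cell type rich in PRKACB, were low in this cultured line, and of 2 tested edgeR called 0. All 5 markers listed had counts in at least 1 library. Their summed level was 0.965 to 1.598 CPM in MUT and 1.94 to 2.82 CPM in WT, without overlap. Taken singly, 26.1% of all tested genes did not overlap either. The part of these markers in the PRKACB difference was not tested.

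The paralog PRKACA, the alpha form of the catalytic subunit (chromosome 19, 14091688 to 14117762), had 3.97, 3.37 and 3.89 CPM in MUT, against 4.56, 3.89 and 3.70 CPM in WT. The ranges overlapped, and the log2 fold change was -0.12 (SE 0.13, edgeR adjusted p = 0.682). In the 4 libraries low in ribosomal RNA its value was 0.0665.

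**Figure D1:**
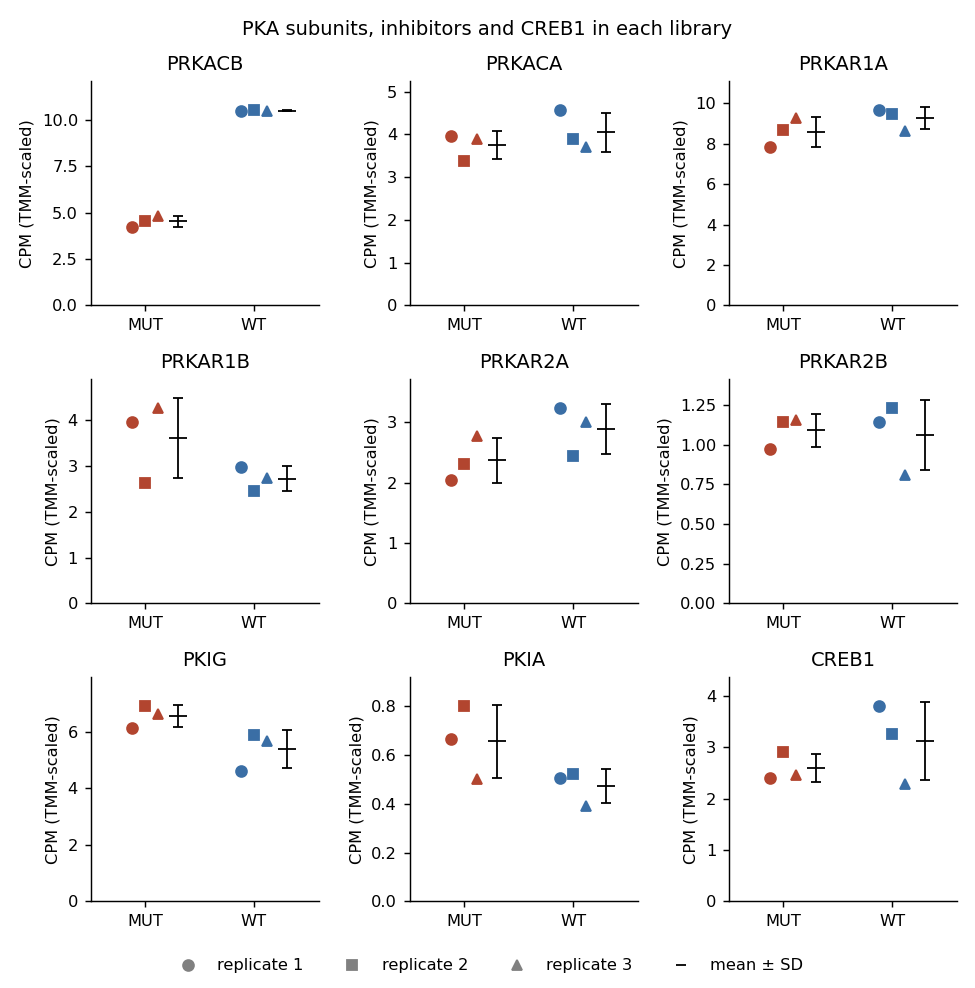
CPM of the 9 genes (vertical axis from 0, CPM) in each MUT and WT library; symbols mark the replicate and black bars the mean ± SD of 3 libraries. PRKACB lies at 4.21 to 4.81 CPM in MUT and at 10.46 to 10.52 CPM in WT, and of the other 8 panels PKIG is the one whose groups do not overlap.

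The regulatory subunits bind cyclic AMP and hold the catalytic subunits inactive. PRKAR1A, the most abundant of them in every library per unit of length (chromosome 17, 68413623 to 68551316), had 7.82, 8.67 and 9.27 CPM in MUT, against 9.64, 9.46 and 8.63 CPM in WT. These ranges overlapped (log2 fold change -0.11, SE 0.11). PRKAR1B (chromosome 7, 549197 to 728934), the other type I subunit, had 3.96, 2.62 and 4.26 CPM in MUT, against 2.98, 2.45 and 2.73 CPM in WT. MUT replicates 1 and 3 lay above every WT library and MUT replicate 2 lay within the WT range. The log2 fold change was 0.40 (SE 0.19, edgeR adjusted p = 0.290). It was 0.61 without MUT replicate 2 (edgeR adjusted p = 0.0589).

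PRKAR2A (chromosome 3, 48744591 to 48847874), a type II subunit, had 2.04, 2.30 and 2.77 CPM in MUT, against 3.23, 2.43 and 3.01 CPM in WT. The highest MUT library was above the lowest WT library, and the log2 fold change was -0.29 (SE 0.17). PRKAR2B (chromosome 7, 107044705 to 107161811) was near 1 CPM throughout, at 0.972, 1.14 and 1.16 CPM in MUT and at 1.14, 1.23 and 0.810 CPM in WT. Its log2 fold change was 0.02 (SE 0.22).

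Of the inhibitors, PKIG (chromosome 20, 44531875 to 44619037) had 6.14, 6.91 and 6.62 CPM in MUT, against 4.63, 5.89 and 5.69 CPM in WT. The groups did not overlap, as was the case for 26.1% of all tested genes, and for 2 of the 9 members. Its log2 fold change of 0.28 (SE 0.13) did not pass the threshold (edgeR adjusted p = 0.262). PKIA (chromosome 8, 78516340 to 78605267) was at the low end, with 50, 78 and 30 counts in MUT and 35, 39 and 17 in WT, or 0.666, 0.801 and 0.503 CPM in MUT against 0.507, 0.521 and 0.393 CPM in WT. The groups overlapped, and its log2 fold change of 0.47 (SE 0.29) did not pass (edgeR adjusted p = 0.415).

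CREB1 (chromosome 2, 207529962 to 207605988) had 2.40, 2.90 and 2.46 CPM in MUT, against 3.79, 3.26 and 2.29 CPM in WT. WT replicate 3 was the lowest of the 6 libraries, so the groups overlapped (log2 fold change -0.28, SE 0.19). The value was -0.0958 without WT replicate 1 and -0.43 without WT replicate 3. Over the 9 genes, 4 values were above 0 and 5 below, with a median of -0.11, against -0.01 over all genes tested. The 8 members other than PRKACB ranged from -0.29 to 0.47, with edgeR adjusted p-values between 0.262 and 0.970. By library size alone PRKACA, PRKAR1A, PRKAR2A and CREB1 turned above 0, where the median of all genes was also above 0.

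Levels of different genes were compared per unit of transcript length, as FPKM. FPKM was not scaled by TMM, and on log2(FPKM + 1) the median gene was 0.33 higher in MUT. The FPKM of a gene is therefore not compared between the groups here. In MUT the order at the top was PKIG (7.15 ± 1.84) before PRKAR1A (4.31 ± 1.48) in every library, and PRKACB stood at 1.54 ± 0.46 FPKM (SD, n = 3), below PRKACA and CREB1 in every MUT library. In WT, PKIG (4.25 ± 1.45) and PRKAR1A (3.92 ± 0.86) led, and PRKACB came next after them in every library, at 3.08 ± 0.63 FPKM. PRKACA had 1.84 ± 0.38 FPKM in MUT and 1.41 ± 0.36 FPKM in WT. CREB1 had 1.72 ± 0.39 FPKM in MUT and 1.72 ± 0.76 FPKM in WT, and PRKAR1B 1.72 ± 0.21 FPKM in MUT and 0.943 ± 0.18 FPKM in WT. Neighbours among PRKACA, CREB1 and PRKAR1B in MUT did not differ by more than their SD. PRKAR2A (0.910 ± 0.27 in MUT, 1.02 ± 0.25 in WT) and PRKAR2B (0.393 ± 0.15 in MUT, 0.260 ± 0.11 in WT) were lower, and PKIA was last in every library, at 0.02 to 0.05 FPKM.

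Corrected for length, the catalytic subunits changed places between the groups, but by counts they did not. The length implied for PRKACB, described below, itself differed, averaging 3609 bases in MUT and 2888 bases in WT. Its part in the change of places was not tested. PRKACB made up 43.7%, 47.8% and 44.2% of the summed PRKACA and PRKACB TPM, the deposited length-corrected abundance, in MUT, against 63.6%, 68.8% and 74.0% in WT. By TPM, PRKACB was the smaller part in every MUT library and the larger part in every WT library. The mean share was 45.2% ± 2.3 in MUT and 68.8% ± 5.2 in WT (SD, n = 3). By counts, which are not corrected for length, the shares were 54.8% ± 3.1 in MUT and 72.2% ± 2.2 in WT. There PRKACB was the larger part in every library of both groups, at 51.5%, 57.6% and 55.3% in MUT. Shares within a library do not depend on how libraries are scaled to each other. They rest on the contrast that led to PRKACB and are given without a test.

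PRKAR1A made up 55.2%, 63.3% and 55.4% of the regulatory subunit TPM in MUT, against 58.6%, 66.3% and 66.1% in WT, and the groups overlapped. PRKAR1B made up 28.3%, 18% and 26.7% in MUT, against 16.0%, 15.1% and 14.96% in WT, with no overlap, though by counts its shares did overlap. The summed regulatory TPM was 2.04, 2.17 and 2.27 times the summed catalytic TPM in MUT, against 1.51, 1.33 and 1.27 times in WT. The catalytic sum includes PRKACB, so this ratio also rests on the contrast that led to PRKACB. Against PRKACA alone the regulatory sum was 3.95 ± 0.29 times in MUT and 4.44 ± 0.39 times in WT, which overlapped in TPM (they did not in FPKM). By counts this ratio ran the other way, at 4.19 ± 0.41 times in MUT and 3.94 ± 0.19 times in WT, and overlapped.

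**Figure D2:**
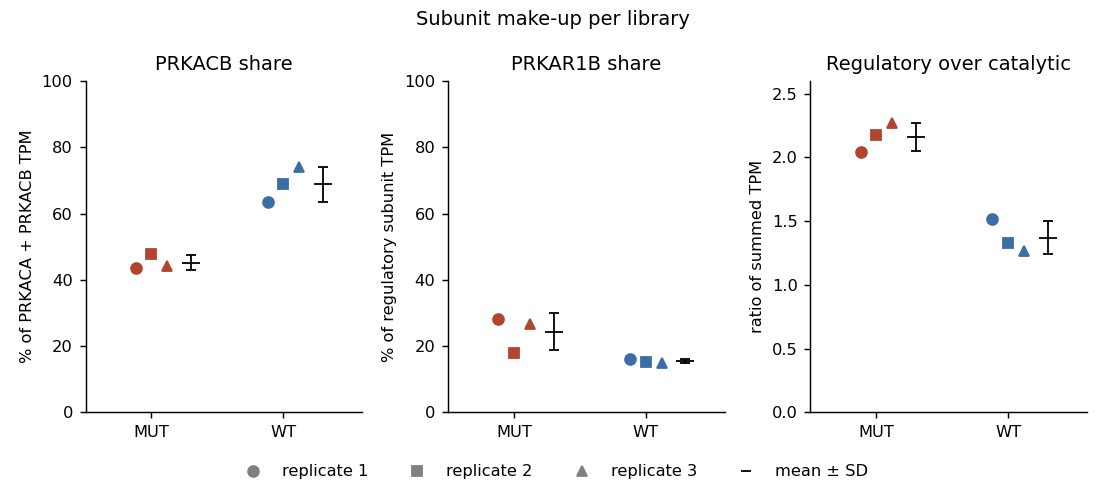
PRKACB as a percentage of PRKACA plus PRKACB TPM, PRKAR1B as a percentage of the 4 regulatory subunits' TPM, and the ratio of summed regulatory to summed catalytic TPM (all axes from 0), per MUT and WT library with mean ± SD. The PRKACB share is 43.7% to 47.8% in MUT and 63.6% to 74.0% in WT, and the ratio is 2.04 to 2.27 in MUT and 1.27 to 1.51 in WT. Both include PRKACB, which was chosen by this contrast.

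The deposited tables also imply an average transcript length for each gene, without naming the transcripts present. The count divided by the FPKM, scaled by the library's total count, gives the effective length that the quantification used for a gene, an average over its transcripts weighted by their estimated abundance. For PRKACB this implied length was 3399, 3683 and 3744 bases in MUT, against 3206, 2995 and 2463 bases in WT, and for PRKACA 2495, 2474 and 2414 bases in MUT, against 2445, 2426 and 2453 in WT. PRKACB was therefore assigned to longer transcripts in every MUT library, by 25.0% on average, while PRKACA differed by 0.820% and overlapped.

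PRKAR1A and PRKAR2A behaved like PRKACB in this measure. PRKAR1A had 2441, 2423 and 2542 bases in MUT, against 2099, 2088 and 1795 in WT. PRKAR2A had 3030, 3249 and 3286 bases in MUT, against 1988, 2625 and 2606 in WT. Of 7 members with at least 0.5 FPKM in every library, these 3 were longer in every MUT library than in any WT library and 0 were shorter. Over all 6656 genes measured this way, 5.63% were longer and 3.43% shorter without overlap. The increases of PRKACB, PRKAR1A and PRKAR2A, at 25.0%, 23.8% and 32.5%, were exceeded by 1.16%, 1.38% and 0.676% of those genes. The 95th percentile of all genes was an increase of 12.0%. CREB1, whose groups overlapped, also lay above it, at 15.4%, exceeded by 3.34% of genes. The number of transcripts known for each gene was not taken into account. Rounding of the FPKM to 2 decimals adds an error of at most 1% to a length. The measure was chosen after the data were seen, it does not show which transcripts differ, and no test was made.

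**Figure D3:**
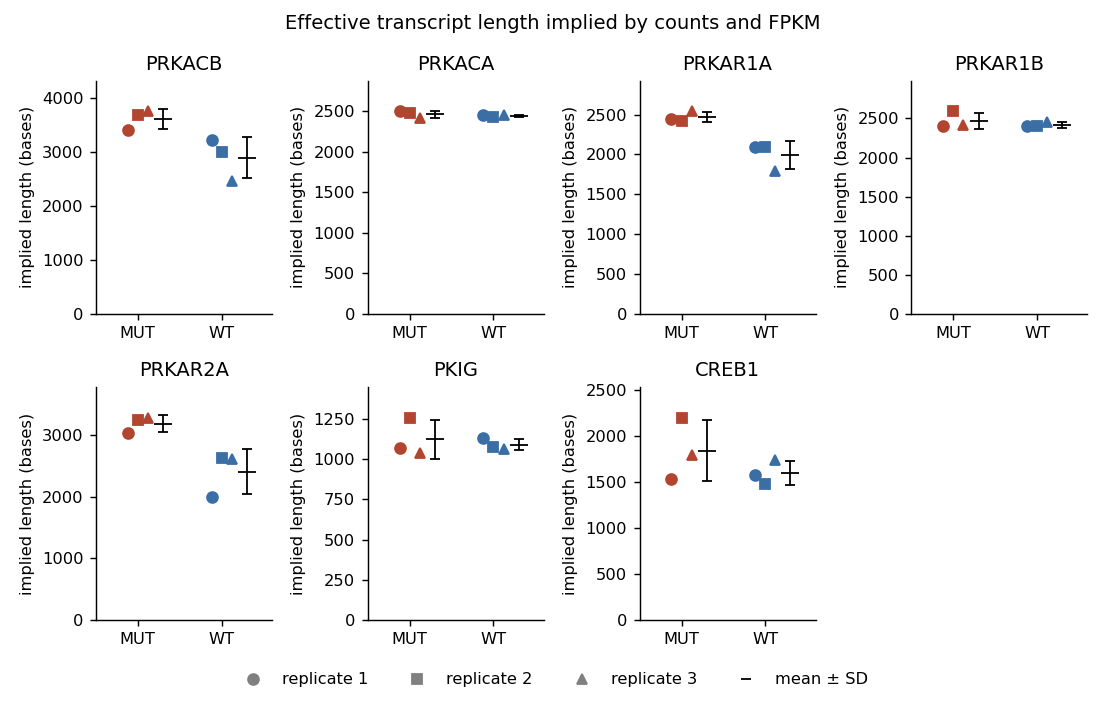
Effective transcript length (bases, axis from 0) implied by the deposited counts and FPKM for the 7 members with at least 0.5 FPKM in every library, per MUT and WT library with mean ± SD. PRKACB, PRKAR1A and PRKAR2A lie higher in all MUT libraries than in any WT library, while PRKACA, PRKAR1B, PKIG and CREB1 overlap.

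The genes that make, sense and break down cyclic AMP, anchor PKA or act with CREB1 were read from the same fit in 8 lists of 104 genes. Of these, 68 were tested and edgeR called 2, both lower in MUT (2.94%, against 1.91% of all tested genes). The 68 values had a median of 0.09, with 39 above 0 and 29 below. No gene of the cyclic AMP synthesis, phosphodiesterase, anchoring protein and CREB family lists passed. At an unadjusted p below 0.05, 3 of 10, 0 of 9, 1 of 15 and 0 of 9 tested genes of these lists passed, and 19.6% of all tested genes did. Over all 8 lists 11 of the 68 tested genes did. DESeq2's Wald test called 6 genes of the 8 lists, the other 4 being GNAI1, PER1, POPDC3 and RGS2, and it called 5.16% of all genes tested.

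Upstream of PKA, the Gs protein gene GNAS, whose product activates adenylyl cyclases, was the most abundant of its list at 84.4 ± 3.8 CPM in MUT and 79.5 ± 2.5 CPM in WT (log2 fold change 0.09, SE 0.13). GNAI2, an inhibitory G protein, had a value of 0.12 (SE 0.12). GNAI1, another inhibitory G protein, averaged 5.81 ± 0.81 CPM in MUT and 8.57 ± 0.50 CPM in WT, and did not pass (-0.56, SE 0.13, edgeR adjusted p = 0.0637). It passed without MUT replicate 2 and in the 4 libraries low in ribosomal RNA. GNAI1 also passed with no low-count filter, with at least 1 CPM in 3 libraries and in DESeq2's Wald test. By library size alone, with the replicate block or with any other single library left out it did not. Of 15 genes of cyclic AMP synthesis 10 were tested, 8 with values above 0 (median 0.16).

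Among 15 Gs-coupled receptors 8 were tested, 4 above 0 and 4 below. The adenosine receptor ADORA2B was the most abundant of them, at 8.93 ± 0.24 CPM in MUT and 7.22 ± 0.43 CPM in WT (0.31, SE 0.10, edgeR adjusted p = 0.152). The melanocortin receptor MC1R (chromosome 16, 89918862 to 89920972) fell, with 39, 45 and 26 counts in MUT against 76, 76 and 72 in WT (-1.40, SE 0.26, edgeR adjusted p = 0.0368). It lost the call with any 1 library other than MUT replicate 2 left out. MC1R ends 952 bases before TUBB3, which averaged 7.21 ± 0.96 CPM in MUT and 39.4 ± 4.2 CPM in WT, and the share of MC1R reads that belong to transcripts running into TUBB3 was not tested.

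Of 16 phosphodiesterases 9 were tested (5 above 0, 4 below, median 0.09). Those with the highest mean TPM were PDE8A (0.09, SE 0.14) and PDE4B (-0.24, SE 0.12), and neither passed. Of 21 anchoring proteins 15 were tested (11 above 0, 4 below, median 0.11). The most abundant were EZR, ezrin, a linker of membrane and actin (0.20, SE 0.11), and the scaffold AKAP12 (0.11, SE 0.20). AKAP12 turned to -0.13 without MUT replicate 2, where its level was highest. Of 3 further PKA genes the catalytic-like kinase PRKX (-0.08, SE 0.16) and the inhibitor PKIB (-0.27, SE 0.19) were tested, and the testis-type catalytic gene PRKACG had no count in any library. All 4 tested cyclic AMP effectors other than PKA had values above 0. By mean TPM the highest were POPDC3 (0.67, SE 0.21, edgeR adjusted p = 0.134) and the channel gene HCN2 (0.25, SE 0.25). POPDC2, at low counts, had a larger value than both (0.72, SE 0.47, edgeR adjusted p = 0.450).

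A list of 9 genes held CREB1 relatives, coactivators and the kinases SIK2 and SIK3, which restrain the CRTC coactivators. All 9 were tested, 4 above 0 and 5 below (median -0.02). By mean TPM the highest were CREM (0.15, SE 0.16) and ATF1 (-0.19, SE 0.18), relatives of CREB1. The largest value was that of CRTC2 (0.31, SE 0.14, edgeR adjusted p = 0.273). Of 16 genes known to be induced through CREB 11 were tested, 3 above 0 and 8 below (median -0.13, against -0.01 over all tested genes). Among them 1 was called (9.09%, against 1.91% of all tested genes), and nothing is read from a share that rests on 1 gene. BDNF, a growth factor of neurons (chromosome 11, 27654893 to 27722030), fell, with 2.80, 3.45 and 3.30 CPM in MUT against 6.07, 5.25 and 5.35 CPM in WT (-0.80, SE 0.13, edgeR adjusted p = 0.0205). Its antisense partner BDNF-AS had 9 to 33 counts in MUT and 4 to 22 in WT, and the strand setting of the counting is not given in the sources used here. BDNF did not pass when any 1 library other than MUT replicate 2 was left out (edgeR adjusted p from 0.0844 to 0.111). The clock gene PER1 had a value of -0.82 (SE 0.19, edgeR adjusted p = 0.0654) and RGS2, a regulator of G protein signalling, 0.81 (SE 0.19, edgeR adjusted p = 0.0643). Both passed with no low-count filter, and RGS2 also with at least 1 CPM in 3 libraries. Neither passed by library size alone or with any 1 library left out. JUNB (-0.29, SE 0.21) overlapped between the groups.

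**Figure D4:**
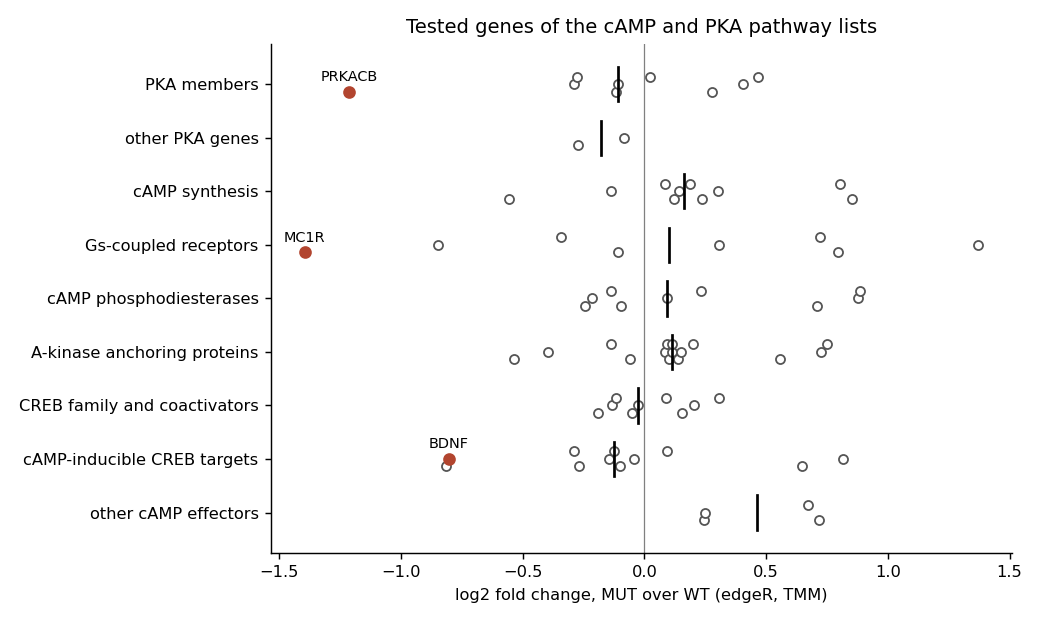
Log2 fold change of MUT over WT (horizontal axis, edgeR with TMM scaling) for the 9 PKA members and the 68 tested genes of the 8 pathway lists; filled points passed an adjusted p of 0.05 and black bars are list medians. PRKACB, MC1R and BDNF are the filled points, at -1.21, -1.40 and -0.80.

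The genes around PRKACB on chromosome 1 were examined for a regional difference. Of 10 other tested genes whose start lies within 1 Mb, 6 had values below 0 and 4 above, with a median of -0.21, and 0 passed edgeR's test. At an unadjusted p below 0.05, 3 of the 10 passed, against 19.6% of all tested genes. DESeq2's Wald test called GNG5, a G protein gamma subunit (-0.58, adjusted p = 0.0204). With no low-count filter edgeR also called GNG5 (-0.58, adjusted p = 0.0222). The nearest tested gene before PRKACB, the tubulin-modifying enzyme gene TTLL7, was at 0.04 (SE 0.23), and the nearest after it, SAMD13, at -0.60 (SE 0.15, edgeR adjusted p = 0.0812). GNG5 was at -0.59 (SE 0.17, edgeR adjusted p = 0.111) and UOX, a pseudogene in humans, at -1.43 (SE 0.63) with low counts. The lysosomal channel gene MCOLN3, the farthest, was at 0.95 (SE 0.33, edgeR adjusted p = 0.154). RPF1 (0.24), CTBS (-0.31), SSX2IP (-0.25), LPAR3 (-0.17) and MCOLN2 (0.19) lay within 1.5 SE of 0.

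**Figure D5:**
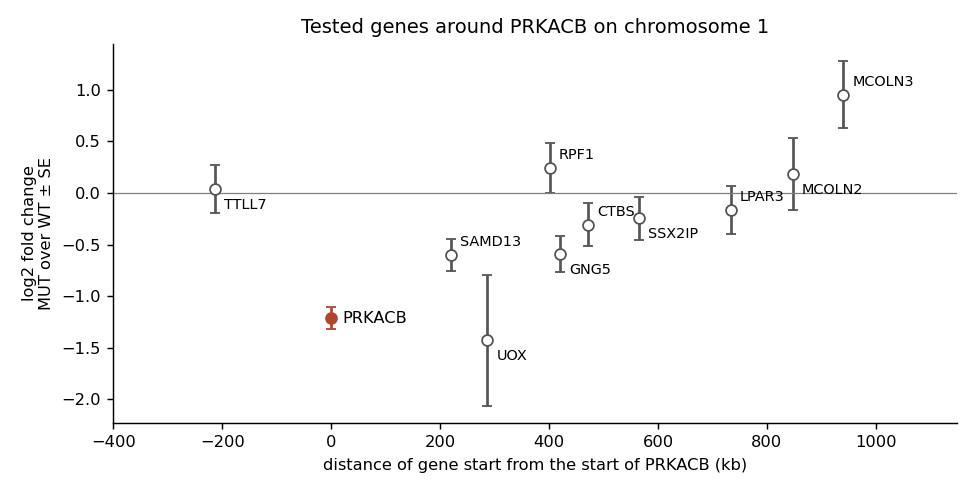
Log2 fold change of MUT over WT ± SE (vertical axis) against the distance of each tested gene's start from the start of PRKACB (kb). PRKACB, the filled point, is at -1.21, and its 10 neighbours run from -1.43 to 0.95.

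Over the 6 libraries, the log2 CPM of 4452 genes averaging 2 or more on that scale was compared with that of PRKACB. HNRNPA1, an RNA-binding protein gene with many pseudogenes, had the highest Pearson correlation (r = 0.998). FDFT1 of cholesterol synthesis (r = 0.997) and the inositol phosphatase gene IMPA2 (r = 0.993) were also among the highest. All 3 were lower in every MUT library than in any WT library, and the 6 points form 2 groups, so the correlation describes the same difference between MUT and WT. HNRNPA1 averaged 58.5 ± 3.0 CPM in MUT and 104.1 ± 0.9 CPM in WT, and IMPA2, whose log2 fold change of -1.21 equalled that of PRKACB, 3.40 ± 0.20 CPM in MUT and 7.89 ± 0.35 CPM in WT.

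Rows named after a member as antisense transcript or pseudogene held few reads. PRKAR2A-AS1 had at most 9 counts and PKIA-AS1 at most 3, and PRKAR1AP1, PRKAR1B-AS1, PRKAR1B-AS2 and PRKAR2B-AS1 had 0 in every library.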

How the data were processed

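RNA of 6 HCT116 libraries (3 MUT, 3 WT, grouped by title) was analysed. The authors deposited 3 tables of 59251 gene symbols, with expected counts, FPKM and TPM. FPKM and TPM are normalised by the authors for length and depth. The submitters' processing notes list RSEM 1.2.28, STAR 2.5.2b, DESeq2 1.42.0, FastQC 0.12.1 and the build hg38 (GRCh38), without roles. All deposited expected counts were whole numbers, so rounding changed none.

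Genes were kept by filterByExpr (minimum count 10, total 15) and tested with edgeR 4.0.16 (R 4.3.3): TMM scaling, quasi-likelihood F-test, no covariate, Benjamini-Hochberg adjustment over 14808 genes, threshold 0.05. The SE is the log2 fold change divided by the square root of F. Levels are CPM of the TMM-scaled library size. DESeq2 1.42.0 and limma 3.58.1 served as alternatives, with others listed in the closing section. The procedure was tested on simulated counts.

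The members and lists were chosen with earlier results of these data known. Named genes are the members, EIF6, list genes that passed (at most 4 per list) or had the 2 highest mean TPM, neighbours of PRKACB within 1 Mb, and the 5 most similar profiles, 2 of which are not reported here. GNAI1, PER1 and TUBB3 were added after their values were seen. Coordinates and promoters are from RefSeq (GRCh38.p14).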

Additional observations from a re-analysis of the deposited data

How the results depend on the processing

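PRKACB kept its direction in 15 of 15 alternatives and passed the threshold in 13, with log2 fold changes from -1.26 to -0.66. The exceptions were library size alone (-0.66) and, chosen after seeing the data, limma on log2(FPKM + 1) (-0.69, adjusted p = 0.336), which each called 0 members. It was not tested in the TPM fits, being under 1 TPM in all but 1 library. The 283 called genes became 108 by library size alone, 1195 with no low-count filter, 462 with at least 1 CPM in 3 libraries, 764 in DESeq2's Wald test, 21 and 10 with limma on log2(TPM + 1) and log2(TPM + 0.1) and 13 on log2(FPKM + 1). With 1 library left out they ran from 27 to 442, the highest without MUT replicate 2, and in the 4 libraries low in ribosomal RNA they were 395. The 2 pathway genes became 0 by library size alone and in the 3 limma fits, and 6 with no filter and in DESeq2's test. With 1 library left out the number ran from 0 to 3. The difference in the PRKACB share was -23.6 percentage points by TPM, -23.4 by FPKM and -17.4 by expected counts. The members with a longer implied length numbered 2 to 4 in the alternatives, which were chosen after seeing the data, while the share of all genes ran from 5.52% to 14.0%. The replicate block gave 296 called genes, 1 member (PRKACB) and 2 pathway genes, BDNF and POPDC3, while MC1R lost its call (adjusted p = 0.0575). Deviations from the group means of same-numbered libraries correlated at -0.29, -0.04 and 0.22, so the numbers were not taken as pairs. Some values that had not passed the threshold changed sign. By library size alone, where the median of all genes was 0.54, PRKACA was 0.41, PRKAR1A 0.44, PRKAR2A 0.29, CREB1 0.28, EIF6 0.0891, PKIB 0.30, PRKX 0.44, PDE4B 0.32, ATF1 0.35, JUNB 0.20, CTBS 0.27, SSX2IP 0.39 and LPAR3 0.33. On log2(FPKM + 1), with a median of 0.33, PRKACA was 0.24, PRKAR1A 0.0885, CREB1 0.0298, EIF6 0.0941, PDE4B 0.16, ATF1 0.10, JUNB 0.19 and LPAR3 0.25. On log2(TPM + 1) and log2(TPM + 0.1), with medians of 0.36 and 0.49, PRKAR1A was 0.12 and 0.19, EIF6 0.18 and 0.19, JUNB 0.21 and 0.29, and GNG5 0.0354 and 0.036. In the 4 libraries low in ribosomal RNA PRKACA was 0.0665, AKAP12 -0.16, JUNB 0.0815, TTLL7 -0.21 and LPAR3 0.13. Without MUT replicate 2 PRKX was 0.0283, AKAP12 -0.13, TTLL7 -0.15, RPF1 -0.0777 and LPAR3 0.0755. With 1 library left out, PRKAR2B ran from -0.11 (without WT replicate 3; -0.018 without MUT replicate 3) to 0.17, MCOLN2 from -0.0124 (without MUT replicate 3) to 0.38, RPF1 up to 0.42 and LPAR3 down to -0.41. The cause of these turns was not tested. Low counts limit PKIA (17 to 78 counts), MC1R (26 to 76) and several neighbours of PRKACB, of which UOX had the lowest mean CPM.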
